A study of Mus musculus with 2 samples.

Results

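Outside the endoderm group of the Sox family, 10 genes were followed in mouse embryonic stem cells edited at Ago1 and Ago2: Sox1, Sox2, Sox3, Sox4, Sox5, Sox9, Sox11, Sox12, Sox13 and Sox15. They were chosen by symbol, and 10 of 10 were found among the 47643 gene IDs of the deposited count files by mapping those IDs with GENCODE M21. The cells belonged to E14, an embryonic stem cell line of 129/Ola background whose tissue is labelled as blastocyst, and their genotype label reads AGO1&AGO2 Double KO. Ago1 and Ago2 encode Argonaute proteins, which carry microRNAs to their target transcripts. The series held 2 polyA RNA libraries of this 1 genotype, replicate 1 with 34798975 and replicate 2 with 29789560 gene counts. Both were grown with 15% serum and the self-renewal cytokine LIF at 100 U/mL on 0.2% gelatine. Cells with intact Ago1 and Ago2 were not analysed here, and the values describe levels in the double knockout without measuring what the knockout changed. Whether the replicates are separate cultures is not stated in the labels, so differences between them may be technical. The p-values below compare the reads of these 2 libraries, those of the binomial test against counting noise alone. They measure no spread between cultures.

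SOX proteins are transcription factors that bind the minor groove of DNA through a domain called the HMG box and bend it. Members are sorted by that domain into subgroups. Sox1, Sox2 and Sox3 form SoxB1, which keeps neural progenitors undifferentiated, and Sox2 also acts with Oct4 (Pou5f1) at the enhancers of pluripotent cells. Sox15 is the single member of SoxG in mammals and has an HMG box close to that of SoxB1. Sox4, Sox11 and Sox12 form SoxC, known from differentiating neurons and mesenchymal progenitors. Sox5 and Sox13 belong to SoxD, whose proteins pair through a coiled coil and lack an activation domain of their own. Sox9 belongs to SoxE and directs cartilage, testis and neural crest development.

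The kinship of the members is visible in their coding sequence, and it bears on whether reads of one could be counted for another. The lines below give the 60 coding bases of Sox2 that the other genes together match best, with the best match in each gene shown. They are from GENCODE M21 transcripts (GRCm38) and lie at the start of the part coding for the HMG box. Capitals mark bases that differ from Sox2. Sox1 and Sox3 stand for the nearest relatives, Sox15 for SoxG, and Sox12, Sox13 and Sox9 for the more distant subgroups.
Sox2: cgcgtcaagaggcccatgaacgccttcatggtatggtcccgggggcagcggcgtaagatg
Sox1: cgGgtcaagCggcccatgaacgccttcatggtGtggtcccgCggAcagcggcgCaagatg
Sox3: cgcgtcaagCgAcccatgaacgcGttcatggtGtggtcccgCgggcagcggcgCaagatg
Sox15: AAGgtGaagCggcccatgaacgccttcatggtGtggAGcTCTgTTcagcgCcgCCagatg
Sox12: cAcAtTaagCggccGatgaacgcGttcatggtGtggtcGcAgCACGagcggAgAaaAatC
Sox13: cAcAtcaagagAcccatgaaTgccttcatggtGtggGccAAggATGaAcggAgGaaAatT
Sox9: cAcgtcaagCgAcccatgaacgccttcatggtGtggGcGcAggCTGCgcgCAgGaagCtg

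Over a longer window of 237 coding bases around this stretch, Sox1 matched Sox2 at 89.5% of positions and Sox3 at 87.8%. Sox15 followed at 73.0% and Sox9 at 70.9%. The SoxC genes stood at 67.5 to 68.8%, and the SoxD genes Sox13 and Sox5 at 62.0 and 60.3%. These differences are spread along the window, so that no stretch of 50 bases in any transcript of Sox2, Sox3, Sox9, Sox11, Sox12, Sox13 or Sox15 recurred in another gene on either strand. Of the 50-base stretches of Sox1, 0.774% recurred, all in Gm25239, a microRNA gene annotated inside its exon. Sox5 had 8.98% in common with other genes. Sox4 had 54.1% in common with Gm26735, a noncoding gene on the opposite strand that covers 2616 of the 4795 exon bases of Sox4. Libraries were prepared with a reverse-stranded protocol, but the strand setting of the counting is not given in the sources used here. The Sox4 values are therefore uncertain, and Gm26735 itself had 2 and 1 counts in replicates 1 and 2.

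The libraries were read as a pair before the members were compared. Counts were found at both targeted genes, with 70.8 and 141 CPM for Ago1 and 124 and 129 CPM for Ago2 in replicates 1 and 2. CPM scales a gene's count by the total of its library. Ago1 thus differed strongly between the libraries (2463 and 4205 counts), and the reason was not tested. A count summed over all exons does not show an edited exon, so these values check no label. Across 19078 genes with at least 10 counts in total, the chi-square between libraries was 9.83 per degree of freedom, so they were treated as separate samples. With both libraries as 1 group there is no comparison of conditions, and p-values below compare the reads of these 2 libraries.

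Sox2 was the dominant member. It had 13706 counts in replicate 1 and 12787 in replicate 2, which is 394 CPM (95% exact Poisson interval 387 to 401) and 429 CPM (422 to 437). Scaled to transcript length as TPM, the unit used here whenever genes are set against each other, Sox2 (ENSMUSG00000074637; GRCm38 chromosome 3, 34650405 to 34652461, plus strand) stood at 529 and 574. Among protein-coding genes ranked by TPM, this is the 99.1 and 99.2 percentile. The 10 members together reached 674 and 706 TPM, of which Sox2 alone held 78.5 and 81.3%. Intervals here and below cover counting error only. In the plot of levels by library, Sox2 stands apart from the 9 other genes in both libraries.

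**Figure D1:**
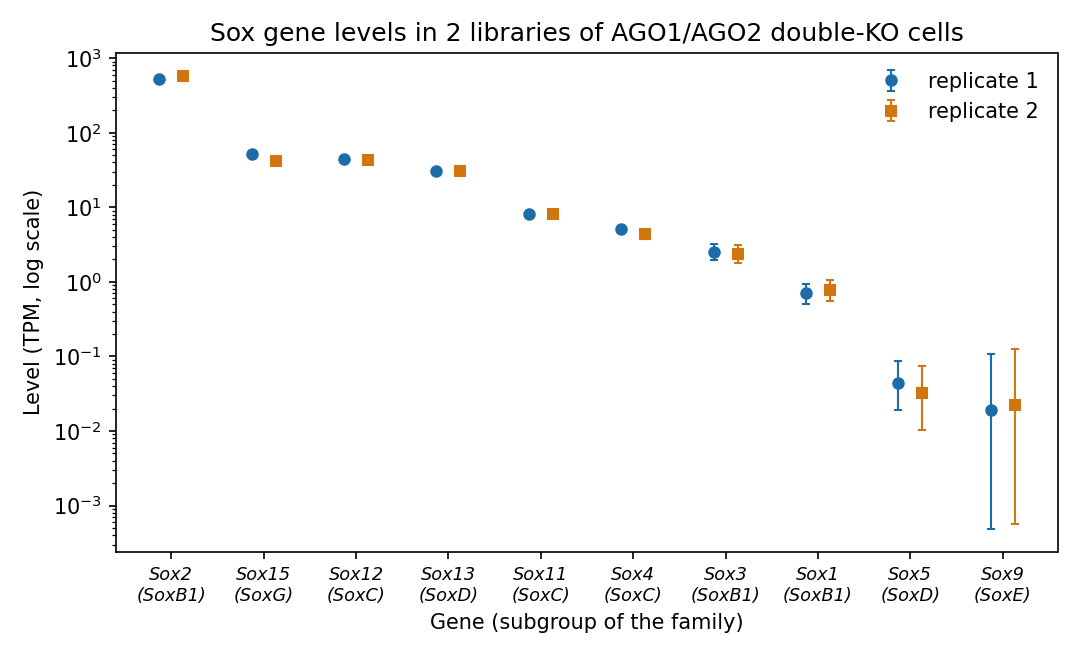
Level of each Sox gene in TPM (log scale) in replicate 1 (circles) and replicate 2 (squares) of the AGO1&AGO2 Double KO cells, with 95% exact Poisson intervals for counting error. Sox2 lies at 529 and 574 TPM, Sox15, Sox12 and Sox13 between 30.9 and 52.7 TPM, and Sox5 and Sox9 under 0.1 TPM.

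The close relatives of Sox2 were scarce. Sox3 (ENSMUSG00000045179; minus strand of chromosome X, 60891366 to 60893430), a neural progenitor gene of nearly the same length as Sox2, had 66 and 53 counts, or 2.54 and 2.37 TPM. Sox1 (ENSMUSG00000096014; chromosome 8, 12395295 to 12400126, plus strand), whose start marks commitment to the neural fate, had 43 and 41 counts, or 0.707 and 0.784 TPM. Both lay far below Sox2, and Sox3 was above Sox1 in each library. In TPM, Sox2 exceeded Sox3 by 208-fold (95% interval 164 to 270) in replicate 1 and 242-fold (185 to 324) in replicate 2. It exceeded Sox1 by 749-fold (556 to 1035) and 733-fold (540 to 1021). Sox2 thus held 99.4% ± 0.04 (SD, n = 2) of SoxB1 TPM. In bulk RNA, a few cells with much of a transcript and many cells with little of it cannot be told apart.

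Sox15 was the nearest relative with a sizeable level. Sox15 (ENSMUSG00000041287; chromosome 11, 69655314 to 69656727, plus strand), a gene known from mouse embryonic stem cells and muscle precursors, had 571 and 389 counts, which is 16.4 and 13.1 CPM. Because its transcript is short, with 861 exon bases, these counts correspond to 52.7 and 41.7 TPM. Replicate 1 was the higher library, and the Poisson intervals of the libraries did not overlap (48.4 to 57.2 and 37.7 to 46.1 TPM). Sox2 exceeded Sox15 in TPM by 10.05-fold (9.24 to 10.9) in replicate 1 and 13.8-fold (12.4 to 15.3) in replicate 2. Of the summed TPM of Sox1, Sox2, Sox3 and Sox15, Sox2 held 91.6% ± 1.63 (SD, n = 2) and Sox15 held 7.87% ± 1.60. As a share of counts rather than TPM, Sox15 fell to 3.97% (Clopper-Pearson 95% interval 3.66 to 4.30%) and 2.93% (2.65 to 3.23%), since CPM does not correct for its short transcript. Its last 31 exon bases overlap Mpdu1 on the opposite strand, and their part in the counts was not tested.

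The SoxC genes were all present, with Sox12 in the lead. Sox12 (ENSMUSG00000051817; minus strand of chromosome 2, 152393611 to 152398063) had 2512 and 2100 counts, or 44.8 and 43.6 TPM. Sox11 (ENSMUSG00000063632; chromosome 12, 27334264 to 27342574, minus strand), a gene of immature neurons, had 851 and 729 counts, or 8.13 and 8.10 TPM over a long transcript of 8311 bases. Sox4 (ENSMUSG00000076431; chromosome 13, 28948919 to 28953713, minus strand), which acts in lymphoid, heart and neural development, had 307 and 225 counts, or 5.09 and 4.33 TPM. The order of the 3 genes was the same in both libraries, and none of their TPM ranges met. The level of Sox4 is uncertain because of its overlap with Gm26735, and so are its place in this order and the shares. Sox12 held 77.5% ± 0.40 of SoxC TPM, Sox11 14.2% ± 0.32 and Sox4 8.25% ± 0.72 (SD, n = 2). The stacked shares show how far the make-up of both groups rests on 1 gene.

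**Figure D2:**
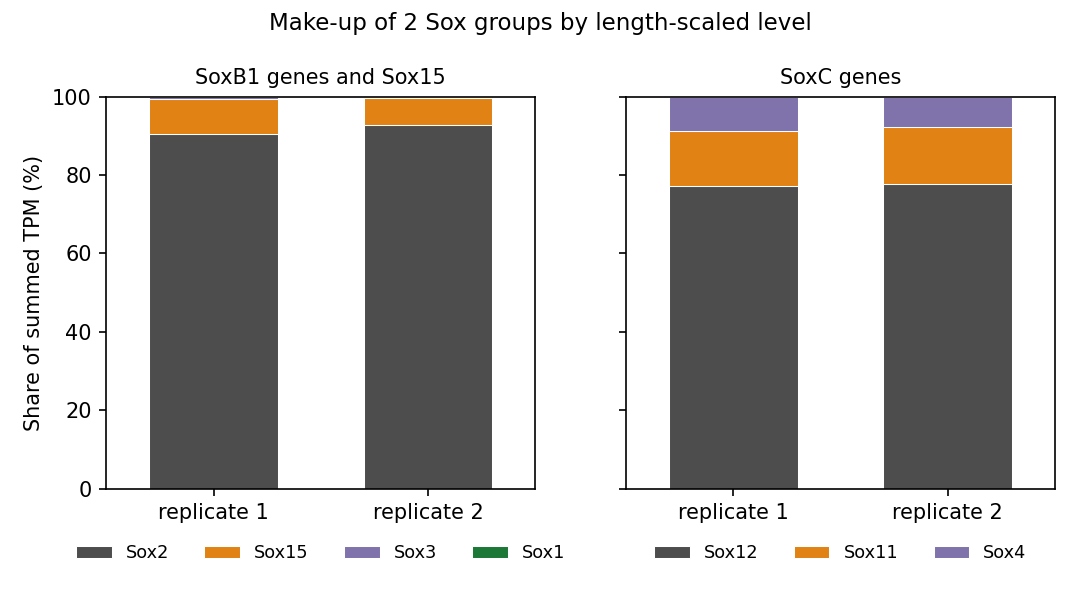
Share of summed TPM (%) held by each gene within SoxB1 with Sox15 (left) and within SoxC (right), 1 bar per library. Sox2 holds 90.4 and 92.7% of the left bars and Sox12 holds 77.2 and 77.8% of the right bars, while Sox3 and Sox1 are too small to see clearly.

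Of the SoxD and SoxE genes among the 10, which are Sox5, Sox9 and Sox13, Sox13 alone was above 0.1 TPM. Sox13 (ENSMUSG00000070643; chromosome 1, 133382303 to 133424377, minus strand), which acts in gamma-delta T cells and modulates Wnt signalling, had 1675 and 1448 counts, or 30.9 and 31.0 TPM. Its relative Sox5 (ENSMUSG00000041540; chromosome 6, 143828425 to 144781977, minus strand), a partner of Sox9 in cartilage, had 8 and 5 counts, or 0.0442 and 0.0321 TPM. Sox9 (ENSMUSG00000000567; chromosome 11, 112782224 to 112787760, plus strand) had 1 count in each library, under the floor of 3 counts, which equals 0.0862 and 0.101 CPM. For Sox9 the Poisson interval reached 0.160 and 0.187 CPM. Of the summed TPM of Sox13 and Sox5, Sox13 held 99.9% ± 0.028 (SD, n = 2).

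In the order of mean TPM, Sox2 came first, then Sox15, Sox12, Sox13, Sox11, Sox4, Sox3, Sox1, Sox5 and Sox9. Sox15 and Sox12 could not be ordered, since Sox15 was 1.18-fold higher (1.07 to 1.29) in replicate 1 and 0.958-fold (0.858 to 1.07) in replicate 2. Sox5 and Sox9 could not be ordered either, because both counting intervals of their ratio held 1. The other 7 neighbouring pairs kept their order in both libraries, with ratios from 1.40 (Sox12 over Sox13, replicate 2) upward. The pairs that include Sox4 carry the uncertainty from its overlap with Gm26735. Of the 10 genes, 8 reached 1 CPM in both libraries, all except Sox5 and Sox9. Of all gene IDs 29.6% reached this level, and of 21620 protein-coding genes 58%. At 1 TPM in both libraries the count was 7, since Sox1 then dropped out.

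The members were next compared between the libraries. With at least 10 counts in total, 9 of the 10 genes were tested with a two-sided exact binomial test on library sizes scaled by TMM, with Benjamini-Hochberg adjustment over 19078 genes. Sox9 was not tested. The log2 ratio of replicate 2 over replicate 1 was 0.12 ± 0.02 for Sox2 (counting SE; adjusted p = 2.08e-10 in the exact binomial test), which was higher in replicate 2. For Sox15 it was -0.33 ± 0.09 (adjusted p = 0.00326 in the same exact test), and replicate 2 was lower. The other 7 did not pass the test. Their log2 ratios ran from -0.41 ± 0.79 for Sox5 to 0.15 ± 0.31 for Sox1, with -0.23 ± 0.13 for Sox4, -0.09 ± 0.26 for Sox3, -0.04 ± 0.04 for Sox12, -0.00099 ± 0.07 for Sox11 and 0.01 ± 0.05 for Sox13.

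This test called 24.2% of all genes, 11.2% higher and 13.1% lower in replicate 2, and it called 39.5% of the 8358 genes with at least 1000 counts. Set against that, 2 calls among 9 tested members is no result about the family. The median log2 ratio of the 9 was -0.04, beside -0.01 for all genes tested, and their median absolute log2 ratio was 0.12, beside 0.16. In edgeR's exact test, the dispersion was estimated from these same 2 libraries taken as 1 group, so the difference under test also sets the dispersion. Few calls follow from that design, and a lack of calls here and below does not show that the libraries agree. That test called 0.477% of genes, and none of the 9 passed. The smallest unadjusted p among them was 0.188, so 0 were under 0.05 before adjustment, and the adjusted p was 1.0 for both Sox2 and Sox15. After removal of the trend of the ratio on GC content, Sox15 no longer passed the binomial test, with a log2 ratio of -0.24 and an adjusted p of 0.0611. The plot of ratio against level places the members inside the cloud of all genes.

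**Figure D3:**
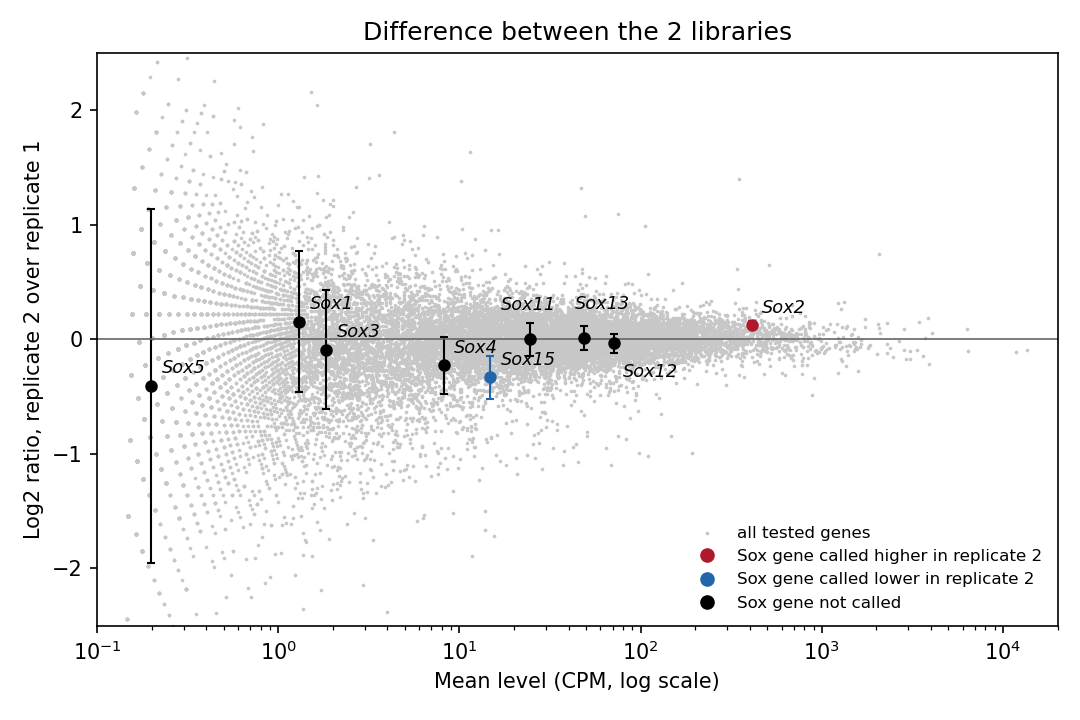
Log2 ratio of replicate 2 over replicate 1 against mean CPM (log scale) for 19078 tested genes (grey) and the 9 tested Sox genes, with bars for the 95% counting interval; 43 genes lie beyond the drawn range of ±2.5. Sox2 at 0.12 and Sox15 at -0.33 are coloured as called by the exact binomial test, and the Sox genes sit within the grey cloud.

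Of 10 other genes of the family, 9 did not reach 1 CPM in both libraries. This list held Sox6, Sox7, Sox8, Sox10, Sox14, Sox17, Sox18, Sox21, Sox30 and Sry. Sox21, a SoxB2 gene that counteracts SoxB1 in neurogenesis, was the highest with 2.53 and 2.05 CPM and the only one at 1 CPM in both libraries. In TPM, Sox2 exceeded Sox21 by 288-fold and 387-fold. Sox14 and Sry had no count in either library. The 10 genes summed to 4.93 and 4.01 TPM, against 674 and 706 TPM for the 10 members. Of the 8 tested, the binomial test called Sox30 higher in replicate 2 (7 and 19 counts) and Sox10 lower (38 and 11 counts). It called 24.2% of all genes, so these calls are no result about the list. In edgeR's exact test, neither Sox30 nor Sox10 was called.

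Partners and targets of Sox2 set its level in context. The partner list held 12 factors that work with or beside Sox2 in pluripotent cells, and 12 of 12 passed 1 CPM in each library. The median of log2(CPM + 1) over the list was 7.82 ± 0.0050 (SD, n = 2), beside 2.36 ± 0.06 for protein-coding genes. Pou5f1, the POU factor that binds next to Sox2, stood at 1748 and 1627 TPM, and the homeobox gene Nanog at 653 and 670 TPM. Sox2 thus reached 0.303 and 0.353 of Pou5f1 and 0.810 and 0.857 of Nanog in TPM, with the higher ratio in replicate 2 for both. Of their 50-base stretches, 10.1% in Pou5f1 and 4.62% in Nanog recurred in other genes, so their counts are less certain than those of Sox2. The lowest partners in CPM were Prdm14 (32.4 ± 3.91 CPM) and the remodeler gene Chd7 (31.5 ± 5.58 CPM). Between libraries, the binomial test called 6 of 12 partners higher and 4 lower, whereas edgeR's exact test called none of them. The binomial test also called 24.2% of all genes and 39.5% of those with at least 1000 counts, a level that all 12 partners reached.

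The target list named 12 genes with Sox2-bound control regions, of which it shares Pou5f1 and Nanog with the partner list. All 12 reached 1 CPM in both libraries, with a median log2(CPM + 1) of 7.77 ± 0.01. Fgf4, whose enhancer carries a joint site for Sox2 and Oct4, stood at 345 and 327 CPM. Utf1, which has such a site too, stood at 209 and 227 CPM. Zscan10, an embryonic zinc finger gene, was the lowest of the list with 104 ± 0.420 CPM. Of the 12, all with at least 1000 counts, 5 were called higher and 4 lower in replicate 2 by the binomial test, beside the same 39.5% of genes at that count, and 0 by edgeR's exact test. The median log2 ratio of the list was 0.02.

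Of the markers of lineages in which the other Sox genes act, a smaller share reached 1 CPM than of the partners and targets. The partners and targets were picked as genes of pluripotent cells, so this contrast follows in part from the choice of lists. Of 21620 protein-coding genes, 58% reached 1 CPM in both libraries, and the neural crest and glial list came near that share. Of 14 neural progenitor and neuron markers 4 reached 1 CPM in both libraries, namely Tubb3 (45.6 ± 0.339 CPM), Nes (30.9 ± 1.71 CPM), Map2 (17.2 ± 0.167 CPM) and Pax6 (2.33 and 2.65 CPM). Dcx, Olig2 and Fabp7 had no count. The summed level of this list was 98.4 and 96.1 CPM, and none of its 5 tested genes was called. The part of any neural cells in the levels of Sox1, Sox3 and Sox11 was not tested. Of 10 neural crest and glial markers 5 reached 1 CPM in both libraries and the list summed to 209 and 211 CPM. It was led by Erbb3 (132 ± 4.63 CPM) and Foxd3 (47.8 ± 2.94 CPM), the latter also a gene of pluripotent cells. Pax3 had 0 and 1 counts.

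The mesoderm, cartilage and fibroblast lists had lower summed CPM than the neural and neural crest lists. Of 10 mesoderm markers 3 reached 1 CPM in both libraries, with Meox1 at 5.84 ± 0.137 CPM, and the list summed to 17.7 and 19.5 CPM. T had 4 and 2 counts. Of 10 cartilage markers 3 reached 1 CPM, and the list summed to 30.001 and 21.05 CPM. Col2a1, a collagen gene that Sox9 and Sox5 switch on in cartilage, led it with 23.2 and 15.0 CPM, whereas Runx2, Hapln1 and Cnmd had no count. Of 10 fibroblast markers, which include genes of feeder cells, 3 reached 1 CPM and the list summed to 31.2 and 29.8 CPM, led by Thy1 (23.9 ± 1.12 CPM). Col3a1, Lum and Postn had no count. In replicate 2, the binomial test called 1 of 7 tested mesoderm markers and 1 of 4 tested fibroblast markers higher. It called 2 of 5 tested cartilage markers lower, beside 24.2% of all genes called in either direction. In the plot of lists, the medians of the partner and target lists lie far to the right of those of the lineage marker lists. Single genes overlap, since Erbb3 at 132 CPM was above the target Zscan10 (104 CPM) and the partner Chd7 (31.5 CPM). The 10 Sox genes spread across both ranges.

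**Figure D4:**
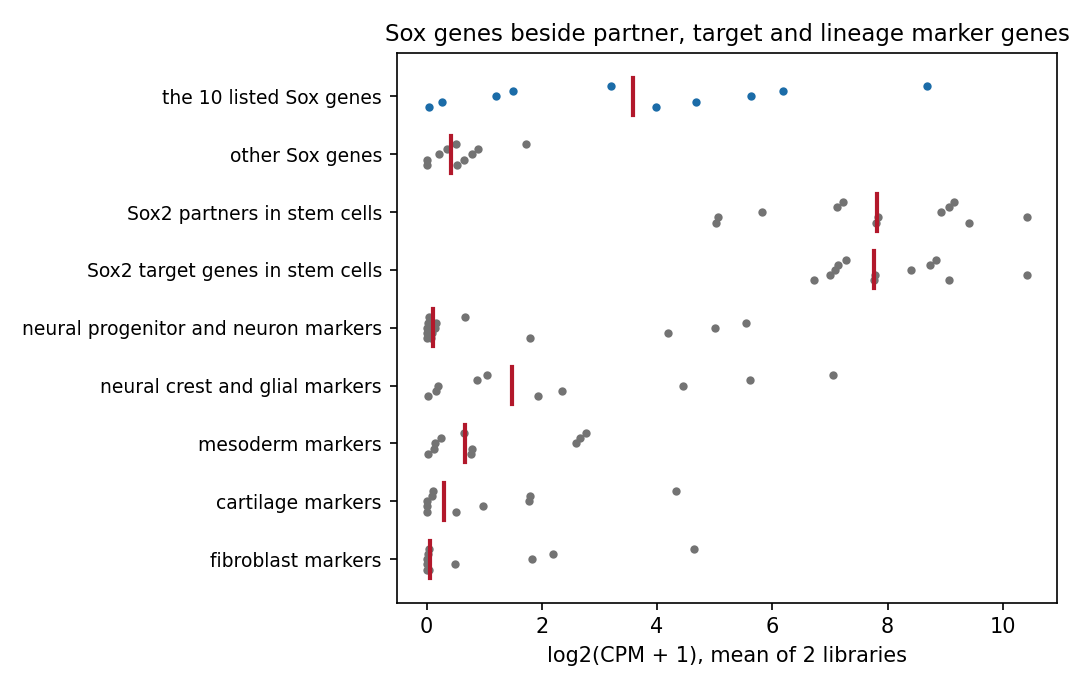
Mean log2(CPM + 1) over both libraries of every gene in each list, with 1 point per gene and red bars at the list median (mean over libraries). The partner and target lists have medians of 7.82 and 7.77, the listed Sox genes 3.58, and the neural list 0.11.

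The gene models of the members differ in ways that bear on their counts. Of the 10 members, 6 (Sox1, Sox2, Sox3, Sox4, Sox11 and Sox12) have a longest transcript of 1 exon, as do 8.56% of protein-coding genes. Sox2 lies inside an intron of the noncoding gene Sox2ot on the same strand, with no exon base in common. Sox2ot had 56 and 57 counts, or 1.61 and 1.91 CPM, against 394 and 429 CPM for Sox2. Sox1ot overlaps Sox1 in the same way, without a shared exon base, and had 5 and 6 counts. Sox5 spans 5 annotated antisense genes, Sox5os1 to Sox5os5, and the same-strand genes Sox5it and Gm44068, all without a count.

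Promoter sequence was available for 8 of the 10 members, credited to RefSeq (GRCm38.p6), and those of the 3 most abundant members are printed because they differ in base composition while the genes are all expressed. Each line holds the 250 bases before the RefSeq start, 5′ to 3′ on the gene's strand. Capitals mark ACAAAG or ACAATG, the core letters bound by SOX proteins, and ATGCAAAT, the octamer bound by POU factors, on either strand. The end of the Sox12 window lies inside its GENCODE exon.
Sox2 (chr3:34649745-34649994, plus strand): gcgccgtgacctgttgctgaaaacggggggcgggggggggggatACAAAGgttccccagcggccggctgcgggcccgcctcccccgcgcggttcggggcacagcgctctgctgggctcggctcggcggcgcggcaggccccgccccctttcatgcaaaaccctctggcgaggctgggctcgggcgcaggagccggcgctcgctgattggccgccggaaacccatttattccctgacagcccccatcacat
Sox15 (chr11:69654787-69655036, plus strand): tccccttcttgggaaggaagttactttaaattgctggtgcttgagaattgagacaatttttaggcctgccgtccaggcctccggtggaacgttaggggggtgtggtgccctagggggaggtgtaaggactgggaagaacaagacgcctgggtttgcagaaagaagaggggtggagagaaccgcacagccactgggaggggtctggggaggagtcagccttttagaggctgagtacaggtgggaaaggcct
Sox12 (chr2:152398047-152398296, minus strand): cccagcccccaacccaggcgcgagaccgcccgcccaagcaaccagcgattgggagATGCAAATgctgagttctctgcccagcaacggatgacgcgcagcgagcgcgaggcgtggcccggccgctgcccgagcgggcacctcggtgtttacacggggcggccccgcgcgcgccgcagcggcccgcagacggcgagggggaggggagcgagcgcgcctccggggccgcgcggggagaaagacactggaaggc

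The Sox2 window held 1 SOX core match, 206 to 201 bases before the start, and the Sox12 window 1 octamer, 195 to 188 bases before the start. The Sox15 window held neither. Across 32851 windows of the same length, 25.2% held a SOX core match and 1.60% an octamer. In the 8 members with a window, 2 held a SOX core match (Sox2 and Sox5) and 1 an octamer (Sox12). CCAAT was found on either strand in 5 of them, beside 33.9% of all windows. TATAAA was in none of the 8, beside 12.4% of all windows. These matches are descriptions of letters and show no binding.

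High CpG content was found at several abundant members and at the scarce member Sox1. The scarce members Sox3 and Sox9 had no window. The observed over expected CpG ratio exceeded 0.6 in 6 of 8 member windows, beside 34.0% of all windows. Sox2 had a ratio of 0.833, Sox12 of 1.01 and Sox13 of 0.951, and Sox1, at under 1 TPM, of 0.987. The windows are not alike in place, since those of Sox1 and Sox13 lie for the most part inside the GENCODE gene. Those of Sox2, Sox15 and Sox11 end 410, 277 and 144 bases before the GENCODE start of the gene. Sox15, the second gene in mean TPM, had a ratio of 0.299, below the median of 0.373 over all windows. The Sox5 window (0.308) belongs to a start inside that gene, downstream of its GENCODE start.

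Since Argonaute proteins read microRNA seeds, the 3′ ends of the members were searched for perfect matches to bases 2 to 8 of selected microRNAs. Mature sequences are from RefSeq (GRCm38.p6), with the seed in capitals, and the site lines give the transcript with the match in capitals. The miR-200b lines are shown because Sox2 and Sox1 carry the same match in nearly the same surroundings. The miR-294 line stands for the miR-290 and miR-302 families, whose members with this seed are the typical microRNAs of pluripotent mouse cells.
mmu-miR-200b-3p: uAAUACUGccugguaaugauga
Sox2 site: gcaacttttgtaCAGTATTtatc
Sox1 site: agaccttttgtaCAGTATTtatc
mmu-miR-294-3p: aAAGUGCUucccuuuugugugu
Sox5 site: ccctggctctaaAGCACTTagtc

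Sox2 had 1 match to miR-200b-3p, at bases 455 to 461 of a 3′ UTR of 1086 bases, and Sox1 had 1, at bases 246 to 252 of 2590. Positions count from 1 after the stop codon. Sox12 had 2 such matches and Sox5 had 3, and the other 6 members had none. Of 21005 longest 3′ UTRs of protein-coding genes, 13.3% held this match, and 26.2% of those between 2000 and 4000 bases long. The match of miR-294-3p and miR-302b-3p, which share a seed, was found in Sox5 alone, beside 14.7% of all 3′ UTRs and 29.1% of those in that length class. That of let-7c-5p was found in Sox13 alone (9.03% of all, 16.1% of the length class) and that of miR-9-5p in none of the 10 (12.2% and 23.6%). The 3′ UTRs ranged from 106 bases in Sox15 to 6957 in Sox11, and in these libraries no unmodified cells allow a site to be set against a change in level.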

How the data were processed

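PolyA RNA of 2 libraries of 1 genotype was analysed. Per the submitters' processing notes, the authors used STAR 2.4.2a and the mm10 (GRCm38) build; the deposited values are unnormalized counts of reads for each Ensembl gene ID. For the counting, the tool, strand setting and annotation were not given in the sources used here. GENCODE M21 gave a symbol to 47224 of the 47643 IDs; the other 419 took 0.116 and 0.124% of counts and stayed in the totals. No row named a total.

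CPM used the library total, and TPM the counts over exon-union length. The exact binomial test (two-sided, on TMM-scaled library sizes) set replicate 2 against replicate 1 (edgeR 4.0.16; threshold 0.05, at least 10 counts in total), with log2 ratios at a pseudocount of 0.5 counts. Alternatives were edgeR's exact test, DESeq2 1.42.0 size factors, no TMM, other filters and thresholds, removal of a lowess GC trend (fraction 0.3), longest transcript lengths and single libraries. Both tests were run on simulated libraries with known changes; the binomial test takes counting noise alone into account, and it called many unchanged genes once spread between libraries was added to the simulation. Poisson and Clopper-Pearson intervals are at 95% and cover counting error only.

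The members and the lists (other Sox genes, Sox2 partners, Sox2 targets, and neural, neural crest, mesoderm, cartilage and fibroblast markers) were chosen with earlier results of these data known. All members, genes overlapping them, and the highest or lowest genes of each list were named; genes without a count, Map2, Pax6, Fgf4, Utf1, Nanog, T, Sox8, Sox10, Sox30, Acan and Matn1 were named beside that rule after their values were seen.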

Additional observations from a re-analysis of the deposited data

How the results depend on the processing

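The number of members called between the libraries was 2 with DESeq2 size factors, without TMM, without a count filter and with at least 100 counts, but 1 after removal of the GC trend and 0 in edgeR's exact test (0 also at an unadjusted p under 0.05). The cause was not tested. Under all of these, no called ratio changed direction. Without a filter the binomial test called 16.2% of all genes, and at 100 counts 34%. The summed TPM of the 10 members was 690 and became 547 with longest transcript lengths; since 8 members keep their length under that choice, this moves with the scaling of all other genes. It ranged from 674 to 706 when 1 library was left out. The share of Sox2 among SoxB1 and Sox15 was 91.6% in TPM and 95.8% in counts, which do not correct for the short Sox15 transcript, and 90.4 to 92.7% with 1 library. The number of members expressed was 8 with either library alone and at 0.5 CPM, 7 at 1 TPM and 6 at 2 CPM. Of 86 listed genes other than the members, 41 reached 1 CPM and 48 reached 0.5 CPM in both libraries. Leaving out a library leaves no comparison between libraries. No paired analysis was possible because the series has 1 group. Depth limits Sox5 and Sox9, whose levels rest on 8 counts or fewer per library.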

Other observations

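Single SoxE and cartilage genes with unequal counts are given as values; they were singled out after their values were seen, and the binomial test called 24.2% of all genes. Of the SoxE genes, Sox10, which directs neural crest and glial fates, had 38 counts in replicate 1 and 11 in replicate 2, a log2 ratio of -1.52 ± 0.48 (counting SE; adjusted p = 0.00529 in the exact binomial test, 0.827 in edgeR's exact test). Sox8 had 28 and 10 counts and was not called (adjusted p = 0.0576 in the exact binomial test). Of the cartilage genes, Col2a1 had 806 and 448 counts, a log2 ratio of -0.62 ± 0.08 (adjusted p = 3.14e-12 in the exact binomial test, 0.437 in edgeR's exact test). Acan, the proteoglycan gene of cartilage, had 105 and 55 counts, a log2 ratio of -0.70 ± 0.24 (adjusted p = 0.0168 in the exact binomial test, 1.0 in edgeR's exact test). Matn1, a further cartilage gene, went the other way with 76 and 81 counts, a log2 ratio of 0.31 ± 0.23, and was not called (adjusted p = 0.366 in the exact binomial test). The 7 tested neural crest and glial markers had a median log2 ratio of 0.17, and 0 of them were called by either test. Sox9 itself had 1 count in each library.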
